A study of Homo sapiens with 16 samples.

Results

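Myc was knocked down with siRNA in parental MDA-MB-231 cells (parental 231), and the RNA of the knockdown and control cells was sequenced. The 6 libraries described here are 3 replicates of parental 231+siNT, which received a non-targeting siRNA (siNT), and 3 replicates of parental 231+siMyc, which received an siRNA against Myc (siMyc). They were chosen by these labels from the 16 libraries of the series, and both groups were harvested after 48 hours. The TXNIP gene of both groups was not edited, unlike in the 231:TKO cells of the same study, which were grown from single cells after TXNIP was deleted with CRISPR-Cas9 and which received the same siRNAs in 3 replicates each (231:TKO+siNT and 231:TKO+siMyc). MDA-MB-231 is an established human triple-negative breast cancer cell line. The labels do not say whether the 3 replicates of a group came from separate cultures, so the p-values below measure only the spread between these libraries, which may be technical.

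Myc is a basic helix-loop-helix leucine zipper transcription factor that binds DNA as a heterodimer with Max, at E-box sequences of which CACGTG is the canonical form. It is known for raising the expression of genes for ribosome synthesis, nucleotide synthesis and cell growth in many tumours, and it is often amplified or highly expressed in triple-negative breast cancer. Proteins of the Mxd family and Mnt also pair with Max and act as repressors, and MondoA and ChREBP pair with Mlx and drive nutrient-responsive genes such as TXNIP, an inhibitor of glucose uptake.

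Markers of mesenchymal-like breast lines were high in all 6 libraries. VIM, a mesenchymal intermediate filament, lay between 2381 and 3013 CPM over the 6 libraries, and CD44, a hyaluronan receptor, between 552 and 684 CPM. CPM values are counts brought to the same library total by TMM. PGR, the progesterone receptor, did not pass 0.0782 CPM in any library, and ERBB2 lay between 73.0 and 102 CPM. Epithelial and luminal genes were present too. EPCAM lay between 17.8 and 24.0 CPM, CDH1 between 4.88 and 9.05 CPM and GATA3 between 11.1 and 15.6 CPM. The epithelial keratins KRT8, at 1236 to 1830 CPM, and KRT19, at 669 to 1077 CPM, were high. Of 12 markers of blood, endothelial, stromal, adipose and liver cells, 8 had enough counts to be tested, and their summed level was 23.6 to 26.2 CPM in siNT and 31.6 to 34.5 CPM in siMyc. CD14 accounted for most of that sum, and without it the ranges were 8.52 to 10.9 CPM and 9.27 to 12.6 CPM, which overlap. CDH5 and ALB lay at 0 to 0.101 CPM.

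Library totals were 48203939 to 49254930 counts in siNT and 51488933 to 59799444 in siMyc, and 3 counts corresponded to 0.0502 to 0.0622 CPM. Parental 231+siNT replicate 1 and parental 231+siMyc replicate 3 stood apart from the other 4 libraries, and counts of genes below are therefore given both without and with a factor for this pair. The pair was picked from earlier results of these data and not from the labels, and since it holds 1 library of each group, the factor does not overlap with the siRNA. Over 13408 genes with a mean above 1 CPM, the deviations of the 2 libraries from their own group means correlated with each other at r = 0.90, and those of siNT replicate 1 with the 4 remaining libraries at -0.82 to -0.80. These are descriptions across genes, which are not independent, and within a group of 3 the deviations sum to 0, which alone makes them run against each other.

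The deviation ran in part with gene length. For the slopes and medians given here, it was taken from the mean of all 6 libraries, not of the group. With each doubling of the length of a gene in the count table, this deviation changed by -0.13 (log2 CPM) in siNT replicate 1 and by -0.13 in siMyc replicate 3, against 0.06 to 0.08 in the others. In the shortest genes, up to 3179 nucleotides, the median deviation was 0.16 and 0.17 in these 2 libraries and -0.10 to -0.06 in the others. In the longest, from 7819 nucleotides, it was -0.20 in both and 0.09 to 0.11 in the others. EGFR, a growth factor receptor kinase picked after its values were seen, shows the deviation in a single gene, more strongly than the medians above. It was at 130, 275 and 296 CPM in the 3 siNT libraries and at 304, 298 and 148 CPM in the 3 siMyc libraries, so that siNT replicate 1 and siMyc replicate 3 were low and the other 4 were alike. Not every long gene followed. CTSB, of 10541 nucleotides, was at 479, 473 and 485 CPM in siNT and at 657, 651 and 623 CPM in siMyc. The cause of the deviation was not tested.

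**Figure D1:**
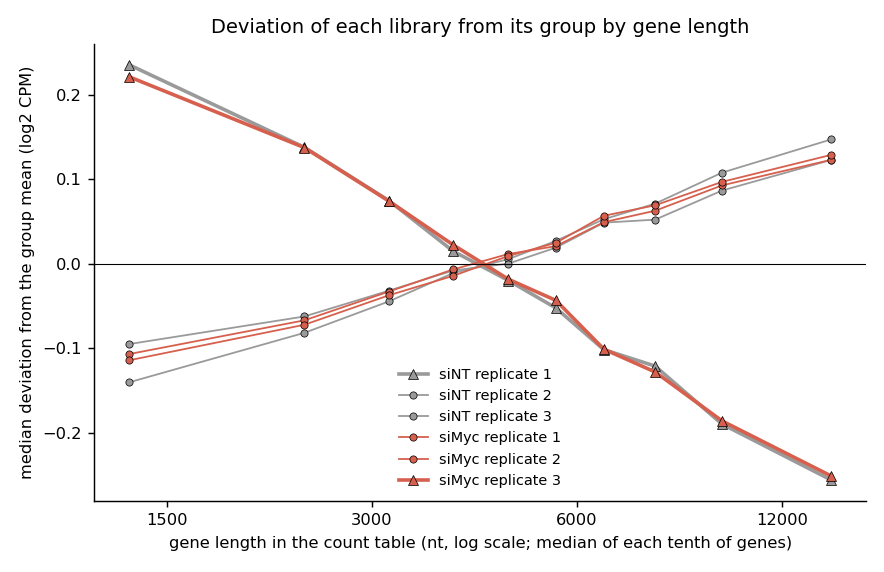
Median deviation of each parental 231 library from the mean of its group (y axis, log2 CPM) in 10 bins of genes ordered by length (x axis, nucleotides, log scale), over 13408 genes above 1 CPM. Triangles mark siNT replicate 1 and siMyc replicate 3, circles the other libraries, grey siNT and red siMyc. The 2 lines with triangles fall with length and the other 4 rise.

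The question of the comparison is which genes depend on Myc in cells that still have TXNIP. Without the factor, edgeR's quasi-likelihood test called 84 of 23728 genes lower in siMyc (0.354%) and 57 higher (0.24%), at a Benjamini-Hochberg adjusted p of at most 0.05. The smallest adjusted p was 0.0297, and 3462 genes had an unadjusted p under 0.05. With the factor, 3113 genes were lower (13.1%) and 3250 higher (13.7%). These shares of all tested genes are the background for the counts of each gene list below. They include many weakly expressed genes. The median level was 2.67 CPM for all tested genes, and 32.4 and 44.8 CPM for those called lower and higher with the factor. Of 10372 genes above 1 CPM with a matched promoter, 5620 were not called with the factor. Expressed genes were thus called more often than these shares, which overstate the excess in lists of expressed genes. All 141 genes called without the factor were also called with it, in the same direction. The estimated biological coefficient of variation, the spread between replicates beyond counting error, was 15.5% without the factor and 4.50% with it, and it was 5.26% in the siRNA libraries of 231:TKO. With offsets for the trend of each library with gene length in place of the factor, it was 12.2%, so the factor takes up more than that trend.

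The 2 fits differed in calls of both large and small changes. With a size of at least 0.5 on the log2 scale, 141 genes were called without the factor and 1144 with it (635 lower and 509 higher). The genes called without the factor had a median size of 0.74 (log2), and none was under 0.5. Those called with the factor had a median size of 0.29, and 82.0% were under 0.5. In all 141 genes called without the factor, the 3 siMyc libraries lay entirely below or above the 3 siNT libraries. The same separation was found in 11.1% of all tested genes downwards and in 10.2% upwards. The count of 141 depended on single libraries, since no gene was called without siNT replicate 2, siNT replicate 3, siMyc replicate 1 or siMyc replicate 2, 95 were called without siMyc replicate 3 and 160 without siNT replicate 1. With the factor, leaving out any library gave 4707 to 7218 genes.

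**Figure D2:**
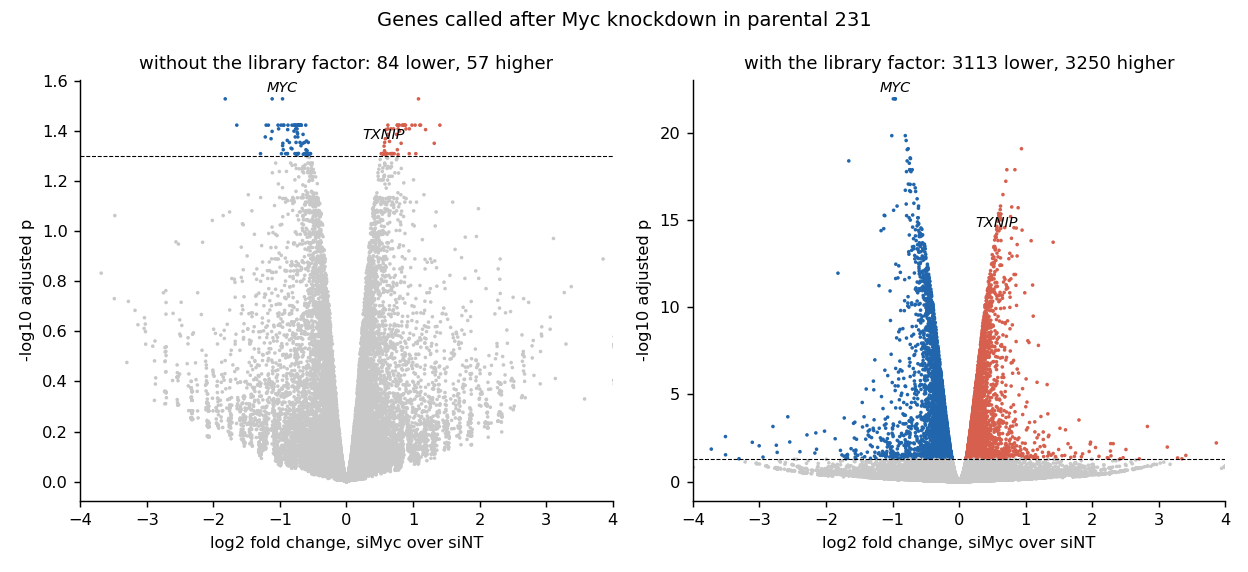
Log2 fold change of siMyc over siNT (x axis) against -log10 of the adjusted p of edgeR (y axis, scales differ) for 23728 genes in parental 231, without the library factor on the left and with it on the right. Blue and red points are genes called lower and higher, grey points were not called, and the dashed line is the threshold. The left panel has 84 blue and 57 red points and the right panel 3113 and 3250; 116 genes on the left and 110 on the right lie beyond the x axis.

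MYC, on chromosome 8 at 127735434 to 127742951 (GRCh38), was the target of the siRNA and fell in all 3 siMyc libraries. It was at 121, 122 and 126 CPM in siNT and at 62.4, 62.0 and 65.3 CPM in siMyc, 123 ± 2.91 against 63.3 ± 1.79 (mean ± SD, n = 3 each), and no value of one group came near the other. The log2 fold change was -0.96 (SE 0.086) with an adjusted p of 0.0297 by edgeR's quasi-likelihood test, and -0.96 with the factor. In siNT replicate 1 and siMyc replicate 3 alone it was -0.89, and in the other 4 libraries -0.99.

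The partners and rivals of Myc moved less. Of 12 tested members of the Myc network, MYC fell and MXD4 rose without the factor, and 3 fell and 2 rose with it. MXD4, a Max partner of the repressor family, was at 105, 99.6 and 102 CPM in siNT and at 153, 149 and 159 CPM in siMyc, and its log2 fold change of 0.59 had an adjusted p of 0.0394 by edgeR. MAX, the common partner, was at 45.8 to 54.2 CPM in siNT and 38.9 to 46.5 CPM in siMyc, and these ranges overlap. Its log2 fold change of -0.29 passed the test with the factor only, at an edgeR adjusted p of 8.87e-06, while without it the adjusted p was 0.293. MLX fell with the factor by 0.16 and MXI1 rose by 0.14 on the log2 scale. The values of MNT (0.11 without the factor and 0.12 with it), MXD1 (-0.03 and -0.02), MXD3 (-0.23 and -0.24), MGA (-0.11 and -0.11), MYCL (-0.15 and -0.16), MLXIP, which encodes MondoA (-0.02 and -0.01), and MLXIPL, which encodes ChREBP (-0.12 and -0.12), did not pass either test.

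TXNIP, an arrestin-domain protein that restrains glucose uptake, was higher in every siMyc library than in any siNT library. It was at 309, 291 and 289 CPM in siNT and at 446, 449 and 421 CPM in siMyc, with a log2 fold change of 0.57 (SE 0.088) and an adjusted p of 0.0458 by edgeR. It was the 1 member of 5 tested genes of the MondoA target and arrestin list that rose without the factor. With it, ARRDC1 and ARRDC3 rose as well, by 0.18 and 0.21. ARRDC4 was at 4.34 to 5.81 CPM in siNT and 5.23 to 6.57 CPM in siMyc and did not pass (edgeR adjusted p = 0.0746 with the factor), nor did ARRDC2, whose log2 fold change was -0.02 in both fits.

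**Figure D3:**
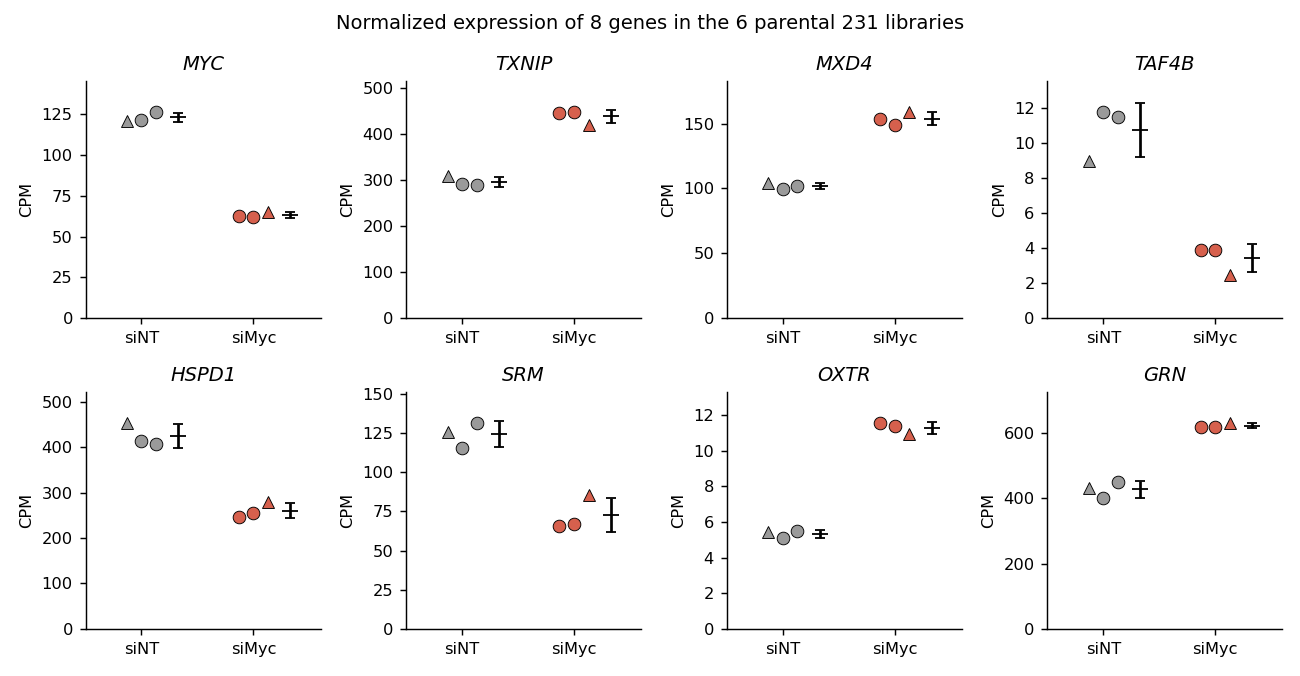
CPM (y axes, from 0) of 8 genes in the 3 siNT (grey) and 3 siMyc (red) libraries of parental 231. Triangles mark siNT replicate 1 and siMyc replicate 3, circles the other libraries, and the bar beside each group is the mean ± SD of its 3 values. The groups do not overlap for any of the 8 genes, and MYC goes from 123 to 63.3 CPM on average.

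The gene that fell most without the factor, among those with a mean of at least 5 CPM, was TAF4B, a subunit of the general transcription factor TFIID. It was at 9.02, 11.8 and 11.5 CPM in siNT and at 3.92, 3.89 and 2.50 CPM in siMyc, a log2 fold change of -1.65 (SE 0.20). POLR3G, a subunit of RNA polymerase III, was at 15.1, 15.8 and 14.0 CPM in siNT and at 7.43, 6.77 and 6.48 CPM in siMyc, a change of -1.12. STEAP1, a metalloreductase of the cell surface, was at 9.78 to 12.5 CPM in siNT and at 4.49 to 5.28 CPM in siMyc. The other 7 were SNHG1, SNHG4, FAM216A, FAM136A, ITGB3BP, a centromere protein, MYC and TFAP4, a helix-loop-helix transcription factor, with changes from -1.22 to -0.95. Their adjusted p-values by edgeR lay between 0.0297 and 0.0491.

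The largest falls in level among the genes called without the factor were those of HSPD1, the mitochondrial chaperonin, PAICS, a purine synthesis enzyme, AHCY, which hydrolyses S-adenosylhomocysteine, VARS1, the valyl-tRNA synthetase, and BOP1, a ribosome assembly factor. HSPD1 was at 454, 413 and 406 CPM in siNT and at 247, 256 and 278 CPM in siMyc, a log2 fold change of -0.70. PAICS went from 304 to 341 CPM down to 186 to 201 CPM, a change of -0.73. BOP1 was at 159, 129 and 134 CPM in siNT and at 65.2, 65.0 and 88.6 CPM in siMyc, a change of -0.95. In both groups the library of the pair was the highest for BOP1.

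Among genes called without the factor with a mean of at least 5 CPM, the one that rose most was B3GALT4, a galactosyltransferase of ganglioside synthesis, at 3.45, 2.68 and 2.14 CPM in siNT and 7.16, 6.96 and 7.78 CPM in siMyc, a log2 fold change of 1.40 (SE 0.17). Receptor genes followed. OPRL1, the nociceptin receptor, rose by 1.10 on the log2 scale, from 3.11 to 3.83 CPM in siNT to 7.04 to 7.73 CPM in siMyc. OXTR, the oxytocin receptor, was at 5.42, 5.10 and 5.49 CPM in siNT and 11.6, 11.4 and 10.9 CPM in siMyc, a change of 1.08 and, with MYC, among the smallest adjusted p-values (0.0297 by edgeR). CALCR, the calcitonin receptor, rose by 0.98. The remaining genes of the 10 were ADAMTSL4, CLIC3, AQP1, a water channel, CTSO, a lysosomal protease, MUC1, a membrane mucin, and PIK3IP1, an inhibitor of PI3 kinase, with changes from 0.86 to 0.95. By level, the largest rises among genes called without the factor were those of GRN, the lysosomal protein progranulin, TXNIP, MFGE8, a secreted glycoprotein, MSMO1, a sterol synthesis enzyme, and YPEL5. GRN went from 400.2 to 451 CPM in siNT to 618 to 632 CPM in siMyc, a log2 fold change of 0.54.

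Genes that assemble ribosomes were the list with the most genes called without the factor, and also the longest list. Of 109 ribosome biogenesis genes, 14 fell and none rose without the factor, against 0.354% and 0.24% of all genes. With it 100 fell and 1 rose, against 13.1% and 13.7% of all genes. Their median log2 fold change was -0.39 in both fits, beside 0.00 for all tested genes. NOP56, a core protein of box C/D snoRNPs, was at 157, 153 and 143 CPM in siNT and at 85.3, 89.8 and 100 CPM in siMyc, a change of -0.72. DKC1, the pseudouridine synthase dyskerin, fell by 0.68 and GNL3, the GTPase nucleostemin, by 0.78 on the log2 scale. NOP16 had a change of -1.01 that passed with the factor and missed the threshold without it, at an edgeR adjusted p of 0.0579. TSR3, which modifies 18S rRNA, was the 1 member that rose with the factor, by 0.15.

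The cytosolic ribosomal proteins moved together by a smaller amount, and the pair of libraries decided whether they were called. Of 80 such genes, none was called without the factor, and 74 fell with it, with a median of -0.31. All 80 had a negative fold change in both fits. RPLP0, a protein of the ribosomal stalk, was at 3160, 2419 and 2404 CPM in siNT and at 1682, 1706 and 2260 CPM in siMyc. The groups were separate, with siNT replicate 1 above the other siNT libraries and siMyc replicate 3 above the other siMyc libraries. Its log2 fold change was -0.50, with an edgeR adjusted p of 0.199 without the factor and 9.18e-13 with it. The 3 siMyc libraries lay entirely below the 3 siNT libraries in 7 of the 80 genes, beside 11.1% of all tested genes. RPS2 changed by -0.61 and RPL36A by -0.48 with the factor. Relative to the mean of the 6 libraries, the median level of the 80 genes was 0.51, -0.06 and 0.01 (log2) in siNT and -0.30, -0.32 and 0.17 in siMyc. The median fold change was -0.36 within the pair and -0.28 in the other 4 libraries. Reads of ribosomal protein genes can match near-identical pseudogenes, so values of single members are less certain.

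Ribosome synthesis also draws on the polymerases of rRNA and tRNA, and there the changes fell on some subunits. Of 36 RNA polymerase I and III genes, POLR3G, POLR1E and POLR1G fell without the factor, and 21 fell and 2 rose with it, with a median of -0.17. POLR1E was at 39.0, 43.0 and 42.4 CPM in siNT and at 25.2, 26.2 and 25.3 CPM in siMyc. MAF1, a repressor of RNA polymerase III, was 1 of the 2 that rose with the factor, by 0.18. All 18 host genes of snoRNAs, whose introns carry the guide RNAs of rRNA modification, fell with the factor, by a median of 0.61 on the log2 scale, and SNHG1 and SNHG4 fell without it too. GAS5 was at 108, 78.1 and 70.1 CPM in siNT and at 44.9, 44.5 and 64.5 CPM in siMyc, a change of -0.74, for which edgeR gave adjusted p-values of 0.144 without the factor and 9.22e-18 with it.

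The machinery of translation fell less evenly. With the factor, 36 of 50 translation factors fell and 1 rose (median -0.19), and 14 of 20 tRNA synthetases fell and 1 rose (median -0.15). Without it, no translation factor was called and VARS1 was the 1 called synthetase, at 261, 276 and 294 CPM in siNT and 188, 190 and 193 CPM in siMyc. EEF1B2, an elongation factor subunit, had a change of -0.47 with the factor and WARS1, the tryptophanyl-tRNA synthetase, one of 0.12. Chaperones showed 2 called genes of 28 without the factor, HSPD1 and TRAP1, which are both mitochondrial, and 21 lower and 1 higher with it (median -0.32). Among 52 genes of nuclear transport and pores, IPO4, an importin, was called without the factor, and 41 fell and none rose with it (median -0.24).

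**Figure D4:**
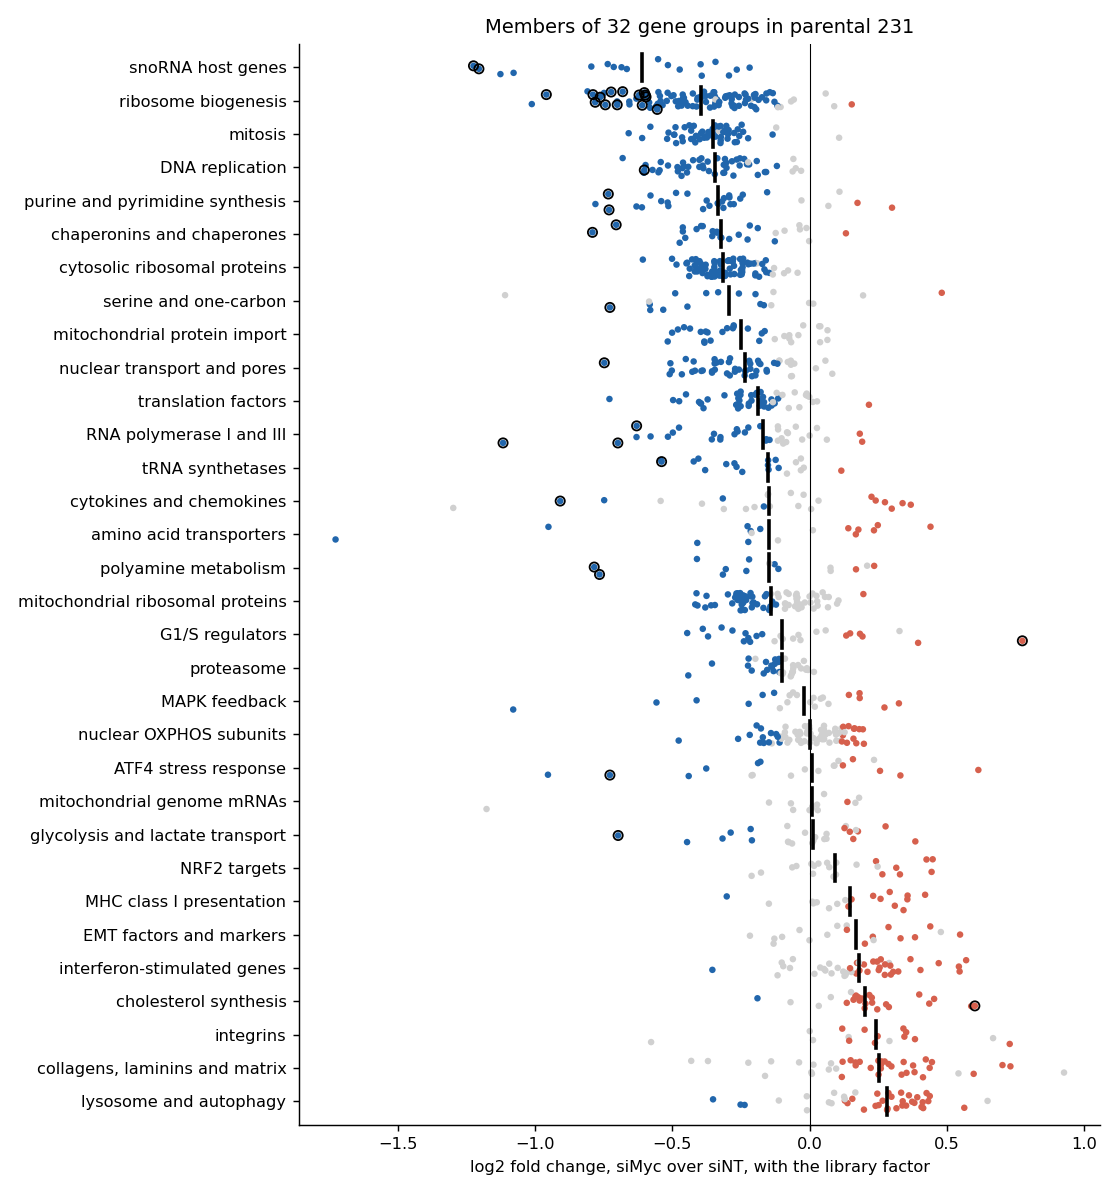
Log2 fold change of siMyc over siNT with the library factor (x axis) for the tested members of 32 gene groups (y axis, ordered by median, names as used in the analysis). Blue and red points are genes called lower and higher with the factor, grey points were not called, black circles mark genes also called without it, and black bars are medians. SnoRNA host genes have the lowest median, -0.61, and lysosome and autophagy genes the highest, 0.28.

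Mitochondrial genes divided by function. With the factor, 41 of 77 mitochondrial ribosomal proteins fell and 1 rose (median -0.14), and 20 of 32 genes of mitochondrial protein import fell and none rose (median -0.25). TOMM40, the channel of the outer membrane, was at 211, 184 and 198 CPM in siNT and at 133, 132 and 155 CPM in siMyc, a change of -0.50. The 76 nuclear OXPHOS subunits had a median of 0.00, with 13 lower (17.1%) and 12 higher (15.8%), beside 13.1% and 13.7% of all genes, and genes above 1 CPM were called more often than all genes. Of the 13 mRNAs of the mitochondrial genome, MT-CO2 rose with the factor, by 0.14, and the others were not called. No gene of these 4 lists was called without the factor.

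Enzymes of nucleotide synthesis mostly fell. Of 31 purine and pyrimidine genes, PAICS and PPAT, the first enzyme of purine synthesis, fell without the factor, and 26 fell and 2 rose with it (median -0.33). PPAT was at 34.6, 38.7 and 38.8 CPM in siNT and at 23.6, 23.7 and 20.2 CPM in siMyc, a log2 fold change of -0.73. NME1, a nucleoside diphosphate kinase, changed by -0.78 in both fits and passed with the factor, while edgeR gave an adjusted p of 0.112 without it. Polyamine synthesis showed the same in 2 of 15 tested genes. ODC1, its rate-limiting enzyme, was at 159, 145 and 143 CPM in siNT and at 85.1, 85.2 and 92.7 CPM in siMyc (-0.77), and SRM, the spermidine synthase, at 126, 115 and 132 CPM and at 65.6, 67.2 and 85.3 CPM (-0.77). With the factor, 9 of the 15 fell and 2 rose, among them OAZ2, an inhibitor of ODC1, by 0.17.

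In the serine and one-carbon list, PSAT1, a serine synthesis enzyme, fell without the factor by 0.72, and 12 of 20 fell and 1 rose with it (median -0.30). MTHFD2, a mitochondrial folate enzyme, had a change of -0.58 and an edgeR adjusted p of 0.0536 without the factor. Glycolysis had no common direction, with 6 lower and 6 higher of 25 with the factor and a median of 0.01. PFKM, the muscle-type phosphofructokinase, was the 1 called without it, at 50.3, 54.5 and 54.5 CPM in siNT and at 32.9, 32.0 and 33.3 CPM in siMyc (-0.70). LDHA, lactate dehydrogenase A, fell by 0.32 with the factor, and SLC2A3, a glucose transporter, rose by 0.38. Amino acid transporters split likewise, 7 lower and 6 higher of 16, with SLC7A2 at -0.95, SLC1A5 at -0.41 and SLC43A2 at 0.44. Of 20 ATF4 stress response genes, 6 fell and 5 rose with the factor. ASNS was at 1.47 to 2.04 CPM in siNT and 0.841 to 1.01 CPM in siMyc, and CHAC1, a glutathione-degrading enzyme, at 24.9 to 27.6 CPM and 36.8 to 46.0 CPM.

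Proliferation genes had negative medians in both fits, while most of their calls came with the factor. Without it the median was -0.34 for DNA replication, with 51 of 51 fold changes negative, and -0.36 for mitosis, with 56 of 57 negative. Of 51 DNA replication genes, RFC3, a subunit of the clamp loader, fell without the factor and 46 fell and none rose with it (median -0.35). Of 57 mitosis genes, none was called without it and 54 fell with it (median -0.35). KIF11, the spindle motor, was at 116, 140 and 141 CPM in siNT and at 89.1, 87.4 and 74.6 CPM in siMyc, so that the groups did not overlap. Its log2 fold change of -0.66 had an adjusted p of 0.0579 by edgeR without the factor and 1.47e-17 with it. CDKN1C, the cyclin-dependent kinase inhibitor p57, was the 1 called G1/S regulator without the factor. It was at 22.0, 18.6 and 17.9 CPM in siNT and at 30.7, 31.4 and 38.1 CPM in siMyc, a change of 0.77. With the factor 11 of the 26 regulators fell (42.3%) and 6 rose (23.1%), beside 13.1% and 13.7% of all genes. Since genes above 1 CPM were called more often than all genes, the 23.1% is not read as an excess. The proteasome, with a median of -0.10, had 16 of 37 genes lower and none higher with the factor.

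The groups that rose were those of the lysosome, of sterol synthesis and of the cell surface and matrix. Of 41 lysosome and autophagy genes, none was called without the factor, and 28 rose and 3 fell with it (median 0.28). CTSB, the protease cathepsin B, was at 479, 473 and 485 CPM in siNT and at 657, 651 and 623 CPM in siMyc, a log2 fold change of 0.43 with an edgeR adjusted p of 0.0742 without the factor. NEU1, a lysosomal sialidase, changed by 0.41, and ATG16L1, an autophagy protein, fell by 0.35 with the factor. Of 25 cholesterol synthesis genes, MSMO1 rose without the factor, and 20 rose and 1 fell with it (median 0.20). MSMO1 was at 130, 116 and 114 CPM in siNT and at 170, 184 and 192 CPM in siMyc (0.60), and IDI1 changed by 0.45.

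Of 41 collagen, laminin and matrix genes, 27 rose and none fell with the factor (median 0.25), and of 16 integrins 10 rose and none fell (median 0.24), while neither list had a gene called without it. HSPG2, the basement membrane proteoglycan perlecan, was at 81.8, 190 and 203 CPM in siNT and at 315, 303 and 142 CPM in siMyc, and the groups overlapped because siMyc replicate 3 lay below 2 siNT libraries. Its log2 fold change was 0.68 without the factor, with an edgeR adjusted p of 0.474, and 0.70 with it, with 6.11e-18. COL8A1, a collagen, was at 90.9, 106 and 106 CPM in siNT and at 167, 156 and 136 CPM in siMyc, separate in all libraries, and changed by 0.60. ITGB3, an integrin subunit, changed by 0.73 and had an edgeR adjusted p of 0.0586 without the factor. Of 20 EMT genes, 8 rose with the factor (40.0%), beside 13.7% of all genes. They included both SNAI2, an EMT transcription factor (0.44), and the epithelial keratins KRT19 (0.33) and KRT8 (0.29).

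Part of the interferon-stimulated and MHC class I genes rose with the factor, while cytokines were called in both directions. Of 43 interferon-stimulated genes, 23 rose and 1 fell with the factor (median 0.18), and of 18 genes of MHC class I presentation 10 rose and 1 fell (median 0.15). No gene of either list was called without the factor. HLA-C was at 787, 664 and 671 CPM in siNT and at 922, 867 and 1050 CPM in siMyc, a change of 0.42, but its reads can be shared with other class I genes. IFI27 was at 203, 138 and 137 CPM in siNT and at 221, 211 and 269 CPM in siMyc. TAP2, a peptide transporter, fell by 0.30 with the factor. Interferon-stimulated genes had a median of 0.06 within the pair and 0.23 in the other 4 libraries. Of 24 cytokines, CSF3 fell without the factor, from 2.96 to 3.66 CPM down to 1.66 to 1.72 CPM, and CSF2 with it (-0.75). With the factor, 4 of 24 cytokines fell (16.7%) and 6 rose, among them IL32, IL11 and CSF1, beside 13.1% and 13.7% of all genes, and the median was -0.15. Without it, 16 of the 24 fold changes were negative.

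In the other lists, 7 of 22 NRF2 targets rose (31.8%) and none fell with the factor, among them HMOX1 (0.44) and FTL (0.33). Of 22 genes of MAPK feedback 6 fell (27.3%) and 5 rose (22.7%), beside 13.1% and 13.7% of all genes. Since genes above 1 CPM were called more often than all genes, these shares are not read as an excess. Of 13 tested breast lineage markers 6 rose with the factor (46.2%), including ERBB2 by 0.24 and GATA3 by 0.25. CD14 was the 1 non-epithelial marker called with the factor, by 0.56, and neither marker list had a gene called without it. Whether the change of the CD14 level has a part in other results was not tested.

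The canonical E-box CACGTG was looked for in the promoters of the genes that moved together. Promoters from RefSeq (GRCh38.p14), 250 bases before to 50 after the start, were matched by symbol to 13718 of the 23728 tested genes. The motif reads the same on both strands. It was present in 7.26% of all promoters of the table and in 10.1% of the genes above 1 CPM. Among genes called without the factor it was in 18 of 66 promoters of those that fell (27.3%) and in 2 of 44 of those that rose (4.55%). Among genes called with the factor the shares were 12.6% and 8.67%, beside 9.61% of genes above 1 CPM that were not called. Ribosome biogenesis genes held it in 35 of 92 promoters (38.0%), cytosolic ribosomal proteins in 3 of 64 (4.69%). Lists that mostly rose with the factor varied as well. Lysosome and autophagy genes held it in 8 of 27 promoters (29.6%), cholesterol synthesis genes in 3 of 19 (15.8%), and collagens, laminins and matrix genes in 0 of 32. The overlapping variant CACGCG, counted on both strands, was in 25.8% and 15.9% of the promoters of genes that fell and rose without the factor and in 18.4% of those above 1 CPM. A match of letters does not show binding, and no test was made of these shares.

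The 250 bases before the start of 4 genes that fell and 1 that rose without the factor are given to show where the motif lies, 5′ to 3′ on the strand of the gene, with CACGTG in capitals.
SRM, chr1:11060019-11060268, minus strand: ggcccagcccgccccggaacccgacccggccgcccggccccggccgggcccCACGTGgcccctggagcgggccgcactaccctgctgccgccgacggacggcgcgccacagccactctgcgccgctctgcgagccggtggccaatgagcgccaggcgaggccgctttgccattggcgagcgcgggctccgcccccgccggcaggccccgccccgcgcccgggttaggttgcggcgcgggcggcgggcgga
HSPD1, chr2:197500275-197500524, minus strand: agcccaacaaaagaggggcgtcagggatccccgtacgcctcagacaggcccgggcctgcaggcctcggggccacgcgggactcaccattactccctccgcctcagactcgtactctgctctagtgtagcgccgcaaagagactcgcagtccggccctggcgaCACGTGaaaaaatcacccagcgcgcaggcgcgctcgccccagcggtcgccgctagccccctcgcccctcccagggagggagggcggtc
PPAT, chr4:56435616-56435865, minus strand: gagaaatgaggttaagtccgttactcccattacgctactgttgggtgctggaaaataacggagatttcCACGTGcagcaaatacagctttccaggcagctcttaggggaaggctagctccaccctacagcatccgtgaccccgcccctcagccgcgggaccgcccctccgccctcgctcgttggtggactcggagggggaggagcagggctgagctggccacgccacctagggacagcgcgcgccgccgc
POLR1G, chr19:45406394-45406643, plus strand: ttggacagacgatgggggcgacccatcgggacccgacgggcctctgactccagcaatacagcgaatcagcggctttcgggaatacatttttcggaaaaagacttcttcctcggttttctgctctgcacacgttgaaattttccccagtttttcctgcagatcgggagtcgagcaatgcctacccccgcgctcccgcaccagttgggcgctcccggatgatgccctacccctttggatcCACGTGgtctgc
MXD4, chr4:2262110-2262359, minus strand: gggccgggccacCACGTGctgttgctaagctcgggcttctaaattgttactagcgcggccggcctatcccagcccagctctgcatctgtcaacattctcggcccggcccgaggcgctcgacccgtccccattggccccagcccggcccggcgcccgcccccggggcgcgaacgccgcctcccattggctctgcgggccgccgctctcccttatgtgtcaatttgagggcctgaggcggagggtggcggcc
The motif starts 199 bases before the start of SRM, 88 before HSPD1, 182 before PPAT, 12 before POLR1G and 238 before MXD4. The first 4 genes had log2 fold changes without the factor of -0.77, -0.70, -0.73 and -0.63, and MXD4 had 0.59.

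The response was then set beside that of the cells without TXNIP, with which it shares no library. In 231:TKO, edgeR called 3119 of 22450 genes lower (13.9%) and 2987 higher (13.3%) after siMyc. Among 21436 genes tested in both populations, 133 of the 139 parental calls without the factor were also called in 231:TKO, all in the same direction, which is 95.7% of the former and 2.18% of the latter. With the factor, 4414 genes were called in both, 70.0% of the 6305 parental calls and 72.5% of the 6089 of 231:TKO, and 4409 of them had the same direction. In 231:TKO, MYC fell by 1.21 on the log2 scale, from 126 to 149 CPM to 58.9 to 59.5 CPM. Its difference from parental 231 was not called in the interaction test described next (edgeR adjusted p = 0.229 with the factor). TXNIP was at 6.77 to 8.17 CPM in 231:TKO+siNT, far below the 289 to 309 CPM of parental 231+siNT, and at 9.19 to 10.2 CPM in 231:TKO+siMyc. Here and below, the CPM values of the 2 populations come from separate TMM scalings, each of its own 6 libraries, so levels are only roughly comparable between them.

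Differences between the 2 responses were tested as an interaction in 1 fit of the 12 siRNA libraries. Without the factor no gene of 25812 was called by edgeR (0%), with 1039 at an unadjusted p under 0.05, and DESeq2 called 6. With the factor, 147 genes were called (0.57%), of which the response in parental 231 was the more negative in 102 and the more positive in 45. In 44 of the 147 both populations rose, in 24 both fell, and in 38 and 12 the gene was called higher and lower in 231:TKO and was not called in parental 231. In 7 and 16 it was called higher and lower in parental 231 and not in 231:TKO. In 2 it rose in parental 231 and fell in 231:TKO, in 3 the reverse, and 1 was called in neither. The 2 populations were counted with Ensembl releases 104 and 102, and a difference of cell population cannot be told apart from one of the 2 sets of libraries.

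BZW2, a regulator of translation initiation, had the smallest adjusted p of the interaction (1e-07 by edgeR with the factor). It was at 81.4, 76.5 and 77.8 CPM in parental 231+siNT and at 51.9, 51.6 and 58.1 CPM in parental 231+siMyc, and at 49.3 to 52.3 CPM and 20.9 to 23.4 CPM in 231:TKO. It fell by 0.55 in parental 231 with the factor and by 1.21 in 231:TKO. PUS7, a pseudouridine synthase, fell by 0.39 and by 1.02. Its level in siNT was 14.9 to 17.4 CPM in parental 231 and 26.8 to 31.3 CPM in 231:TKO, while in siMyc the ranges were 11.1 to 13.2 and 13.9 to 15.2 CPM. Both genes thus fell in both populations, and by less in parental 231.

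Among the genes with a more negative response in parental 231, MATN2, a matrix protein, rose by 0.31 with the factor and by 0.75 in 231:TKO, and PSG9, a pregnancy-specific glycoprotein with close paralogs, by 0.76 and 1.45. OXTR rose by 1.08 and 1.75, and the difference of -0.70 had an adjusted p of 0.0272 by edgeR with the factor. JAG2, a Notch ligand, had changes of 0.18 and 0.71. CCDC85B overlapped between the groups in parental 231, at 160 to 240 and 170 to 253 CPM, and rose by 0.46 in 231:TKO. INHBB, a subunit of activin B, had changes of 0.40 and 1.18, and the difference did not pass (edgeR adjusted p = 0.176 with the factor).

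The medians of the gene groups in the 2 populations are given side by side, with no test of their own. The ribosome biogenesis median was -0.39 in parental 231 with the factor and -0.54 in 231:TKO, where 98 of 109 fell and none rose, and 6 of its genes had a called interaction with the factor, each more positive in parental 231. For cytosolic ribosomal proteins the medians were -0.31 and -0.45, with 1 called interaction, for mitosis -0.35 and -0.34 with none, for lysosome and autophagy 0.28 and 0.33 with 2, and for cholesterol synthesis 0.20 and 0.20 with none. Interferon-stimulated genes had medians of 0.18 and 0.03, with 14 higher and 8 lower in 231:TKO and 3 called interactions, all more positive in parental 231. HERC6, 1 of them, was at 27.2, 31.0 and 31.5 CPM in parental 231+siNT and at 43.5, 44.5 and 31.5 CPM in parental 231+siMyc, and at 45.0 to 53.1 CPM and 49.4 to 53.1 CPM in 231:TKO. Glycolysis had medians of 0.01 and -0.16 and 2 called interactions. LDHA, 1 of the 2, fell by 0.32 in parental 231 with the factor and by 0.66 in 231:TKO.

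**Figure D5:**
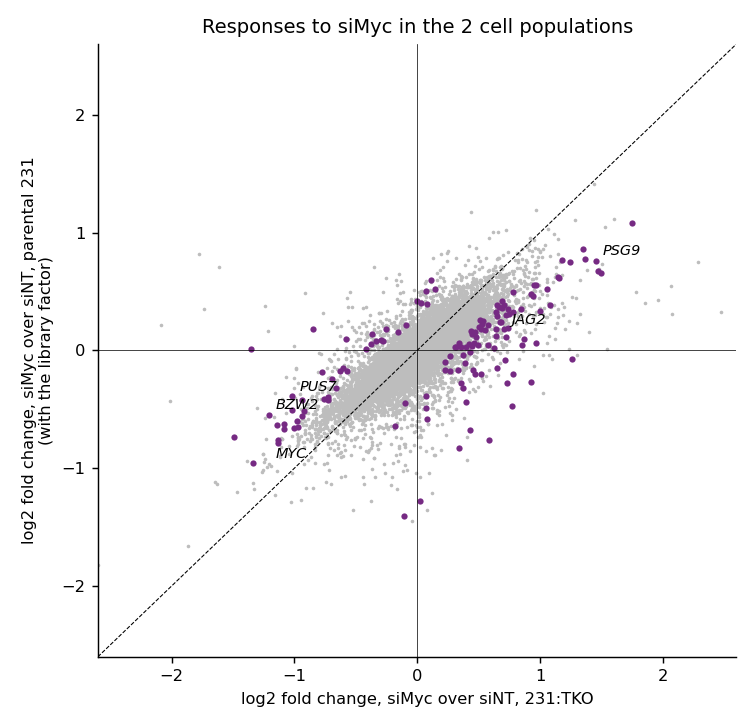
Log2 fold change of siMyc over siNT in 231:TKO (x axis) against parental 231 with the library factor (y axis) for 13361 genes above 1 CPM in parental 231. Purple points are the 136 plotted genes with a called interaction with the factor, and the dashed line marks equal changes. BZW2 and PUS7 lie above the line, with a smaller fall in parental 231, and PSG9 and JAG2 below it. MYC also lies above it, but its interaction was not called (edgeR adjusted p = 0.229 with the factor).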

How the data were processed

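RNA from 6 siRNA-treated parental 231 libraries and, for 1 comparison, 6 of 231:TKO was analysed. The authors aligned reads to GRCh38 with STAR, and per the file headers counted read pairs on genes with featureCounts 1.6.3, strand-specifically (reverse) and by largest overlap, in Ensembl release 104 (102 for 231:TKO). They deposited raw counts per gene, without normalization or filtering. The headers' commands do not ask for reads with several matches. Untreated libraries were not used here. Symbols were found for 82.9% of the tested genes.

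Tests used edgeR 4.0.16 (R 4.3.3) on genes whose counts in the 6 libraries summed to over 5 (TMM scaling, robust quasi-likelihood test, Benjamini-Hochberg adjustment over all genes tested, threshold 0.05), without and with a factor for siNT replicate 1 and siMyc replicate 3. The method was tested on simulated data. The members, the factor and the gene lists were chosen with earlier results of these data known, so p-values with the factor do not cover its choice. Alternatives were DESeq2 1.42.0, other scalings, filters and thresholds, gene length offsets, a replicate block, 1 fit of the 12 libraries and each library left out. The alternatives to the fit with the factor were chosen after seeing the data.

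Named genes were the Myc network and MondoA lists, the 10 largest rises and falls among genes called without the factor (mean of at least 5 CPM, groups not overlapping), in each list up to 3 called genes with the smallest adjusted p and 1 in the other direction, the 5 largest changes in CPM each way among genes called without the factor, and the 5 smallest interaction p-values. EGFR and the differences of OXTR, LDHA and HERC6 from 231:TKO were chosen after their values were seen. Some genes that the rule names are not reported here. The floor of 3 counts covers counting error only.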

Additional observations from a re-analysis of the deposited data

Results flagged for a closer look

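The difference between the responses of parental 231 and 231:TKO, tested as an interaction with the library factor by edgeR's quasi-likelihood test, passed the threshold for 147 genes, and for none without the factor. Among the named genes, the difference (parental 231 minus 231:TKO, log2) was 0.63 for BZW2 and 0.60 for PUS7, which fell less in parental 231. It was -0.72 for PSG9, -0.55 for JAG2, -0.47 for MATN2 and -0.43 for CCDC85B.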

How the results depend on the processing

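Without the library factor, 141 genes were called, 84 lower and 57 higher. The alternatives gave 1110 (631 and 479) with DESeq2, 91 (56 and 35) with DESeq2's size factors in edgeR, 5 (4 and 1) with upper-quartile factors, 330 (209 and 121) with no filter on low counts, 225 (142 and 83) with more than 5 counts in every library, none at an adjusted p of at most 0.01, 1053 (603 and 450) with gene length offsets, 1666 (942 and 724) in 1 fit of the 12 libraries, 4673 (2442 and 2231) without the pair, and 6363 (3113 and 3250) with the factor. Leaving out 1 library gave 0 to 160 genes, 0 to 101 lower and 0 to 59 higher, with 0 where siNT replicate 2 or 3 or siMyc replicate 1 or 2 was left out. With the factor, a log2 fold change of at least 0.5 left 1144 genes (635 and 509), and leaving out 1 library gave 4707 to 7218, 2400 to 3558 lower and 2260 to 3660 higher. The cause of these changes was not tested. No alternative turned the direction of any of the 47 named genes called without the factor. Recomputed medians of the gene lists moved by less than the spread between replicates in 651 cases without the factor and 455 with it, and by more in 33 and 13. That spread was taken from the libraries without the factor and includes the deviation of the pair. For the fit with the factor it is therefore a wide measure.

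Whether the replicate numbers pair the samples could not be told. The shared deviation of siNT replicate 1 and siMyc replicate 3 falls on different numbers and affects both checks. The deviations of same-numbered libraries correlated at -0.82, 0.64 and -0.75, and a replicate block left 0 genes called without the factor and 0 for the interaction. For the interaction, 0 genes were called, also without each library in turn (0 to 0), 6 by DESeq2, all more positive in parental 231, and 147 with the factor (102 more negative and 45 more positive in parental 231).

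Of the named genes, those that changed sign were not called in the comparison concerned. Without the factor these were, as log2 fold changes, ARRDC2 (0.00331) and MLXIP (0.00802) with upper-quartile factors, and ARRDC2 (0.00950) and MYCL (0.0752) without the pair. Leaving out 1 library at a time gave ranges of -0.0718 to 0.0114 for ARRDC2, -0.0558 to 0.231 for MNT, -0.159 to 0.264 for CCDC85B, -0.411 to 0.168 for MGA, -0.218 to 0.156 for MLXIP, -0.150 to 0.0925 for MXD1 and -0.297 to 0.00828 for MYCL. With the factor the ranges were -0.0740 to 0.0228 for ARRDC2, -0.286 to 0.0779 for MYCL, -0.0766 to 0.0429 for MXD1, -0.0452 to 0.0373 for MLXIP and -0.252 to 0.0187 for MLXIPL.

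The depth limits genes near 3 counts, 0.0502 to 0.0622 CPM. Without the factor, no gene with a change under 0.5 log2 was called.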
